A study of Mus musculus with 6 samples.

Results

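A group of 10 genes of the endoplasmic reticulum (ER) protein-folding system were followed in mouse macrophages that lack AEG-1. They are the chaperones Hspa5, Hsp90b1, Dnajb9, Sdf2l1, Calr and Canx, the disulfide isomerases Pdia4 and Pdia6, the degradation factor Herpud1 and the transcription factor Xbp1. The 10 genes were chosen by name as ER chaperones and targets of XBP1 or ATF6, out of 46983 genes in the count table, and all 10 were matched by symbol and passed the filter on low counts. Bone marrow from femurs of C57BL/6 mice, wild-type (WT) or AEG-1 knockout (AEG-1 KO), had been grown for 7 days in 20% L929 conditioned medium and 10% serum, which turns marrow cells into bone marrow derived macrophages, and was left untreated. Each genotype had 3 libraries, numbered as replicates 1 to 3. The labels name no age, no sex and no method of gene deletion, and they leave unsaid whether separate animals or cultures were used, so a p-value reflects only how far these libraries spread, and that spread may be technical.

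The ER lumen is where secreted and membrane proteins fold. BiP, the product of Hspa5, and GRP94, the product of Hsp90b1, hold unfolded chains, calreticulin and calnexin hold chains that carry sugars, and disulfide isomerases form and reshuffle cysteine bonds. When unfolded protein builds up, the sensors IRE1, ATF6 and PERK start the unfolded protein response: IRE1 splices Xbp1 mRNA into the form that encodes an active transcription factor, ATF6 is cut to release another, and PERK slows translation while favouring ATF4. XBP1 and ATF6 then raise chaperones and degradation factors. The gene Mtdh encodes AEG-1, short for astrocyte elevated gene-1, which is known as an ER membrane and RNA-binding protein.

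Promoter sequences are shown first because these genes are known to be switched by short shared elements. All 10 genes had a RefSeq promoter window on GRCm38.p6, and the 250 bases before the RefSeq start were searched on both strands. The ER stress response element, searched as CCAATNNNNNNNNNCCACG, was found in 5 of the 10 genes (Hspa5, Hsp90b1, Calr, Canx and Pdia6), and in 0.113% of the 32817 windows of all genes. Hsp90b1 held 2 copies. The related ATTGGNCCACG element was found in Herpud1 alone among the 10 and in 0.0305% of all windows. Herpud1 also held a TGATGNAA element, the letters to which ATF4 with C/EBP partners can bind, found in 3.45% of all windows. The TGACGTGG element known for XBP1 binding was in none of the 10 and in 0.564% of all windows. Dnajb9, Xbp1, Pdia4 and Sdf2l1 held none of the 4 elements in this window. For Dnajb9 the whole window lay inside the annotated gene span given below, so bases before its annotated 5′ end were not searched. The Hspa5 stretch printed here also lies inside the Hspa5 gene span given below. As the genes were listed as ATF6 or XBP1 targets, the matches are a description, and a match is not evidence of binding. The stretches are written 5′ to 3′ on the strand of the gene, with the matched elements in capitals, and the unmatched Dnajb9 stretch is shown because that gene differed between genotypes.
Hspa5, chr2:34772015-34772053, plus strand: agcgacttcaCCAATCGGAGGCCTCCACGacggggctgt
Hsp90b1, chr10:86705523-86705666, minus strand: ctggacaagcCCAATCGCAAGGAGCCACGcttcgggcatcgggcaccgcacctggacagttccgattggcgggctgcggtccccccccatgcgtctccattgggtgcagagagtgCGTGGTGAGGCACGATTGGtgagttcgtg
Calr, chr8:84847065-84847103, minus strand: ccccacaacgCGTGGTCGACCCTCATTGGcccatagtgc
Canx, chr11:50325790-50325828, minus strand: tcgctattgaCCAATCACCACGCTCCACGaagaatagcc
Pdia6, chr12:17266481-17266519, plus strand: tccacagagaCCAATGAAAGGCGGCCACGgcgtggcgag
Herpud1, chr8:94386307-94386397, plus strand: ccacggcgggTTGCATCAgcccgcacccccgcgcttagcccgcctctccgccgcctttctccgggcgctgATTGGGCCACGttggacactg
Dnajb9, chr12:44210069-44210168, minus strand: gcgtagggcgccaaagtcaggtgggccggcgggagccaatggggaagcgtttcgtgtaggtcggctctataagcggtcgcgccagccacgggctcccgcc

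Total counts ran from 42548170 to 58947230 per library, so that a level of 1 CPM, after scaling by TMM factors, was 42.5 reads in the smallest library. Mtdh stood at 254 to 273 CPM in WT and at 0.333 to 0.517 CPM in AEG-1 KO, so every library carried the Mtdh level of its label. All 8 macrophage markers were measured, at a summed 17670 to 18154 CPM in WT and 18155 to 18837 CPM in AEG-1 KO. Markers of other cells were low. The summed level of 6 monocyte markers was 116 to 126 CPM in WT and 146 to 153 CPM in AEG-1 KO. That of 8 neutrophil markers was 105 to 128 and 160 to 195 CPM, and that of 7 stromal markers 5.45 to 6.91 and 9.34 to 11.2 CPM. For 6 dendritic cell markers it was 2.07 to 4.39 and 2.15 to 3.52 CPM. By the edgeR test given below, 4 of 6 tested monocyte, 5 of 6 neutrophil and 4 of 6 stromal markers were called higher and none lower. Of the 8 macrophage markers 3 were called higher and 1 lower. Among all genes 3.31% were called higher and 3.04% lower. Plasma cells are rich in XBP1 and ER chaperones: 11 B and plasma cell markers summed to 102 to 107 CPM in WT and 88.9 to 95.9 CPM in AEG-1 KO, with Tnfrsf17 under 0.1 CPM in every library. The mast cell and basophil markers and the T and NK cell markers were under 0.1 CPM each. In bulk RNA, fewer cells of a type and less RNA per cell cannot be told apart.

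Setting AEG-1 KO against WT shows which of these transcripts differ in resting macrophages that lack AEG-1. Dnajb9, a co-chaperone of BiP, was higher and Herpud1, a degradation factor, was lower in AEG-1 KO, while 8 of the 10 genes were not called. Dnajb9 reached 139% of its WT level and Herpud1 76.3%. Of the 10 genes 1 was called higher and 1 lower, by the edgeR quasi-likelihood test with Benjamini-Hochberg adjustment over 16115 genes at a threshold of 0.05, where 3.31% of all genes were called higher and 3.04% lower (6.35% in either direction). The median log2 fold change of the 10 genes was -0.01, beside 0.01 over all genes tested. Their median absolute log2 fold change was 0.10, beside 0.11 over all genes. The groups did not overlap for 4 of the 10 genes, 1 higher and 3 lower in AEG-1 KO. Among all genes they did not overlap for 26.8%, 13.9% higher and 12.9% lower.

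**Figure D1:**
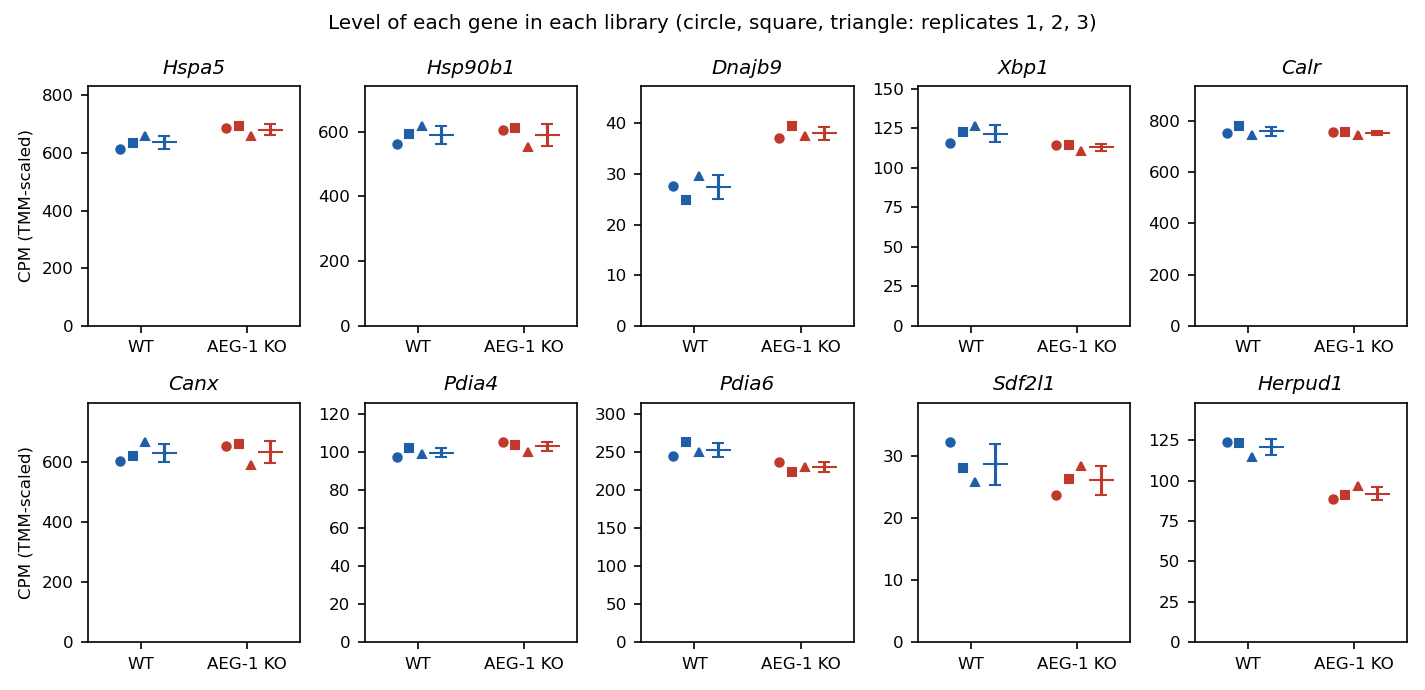
Level of each of the 10 genes (CPM, TMM-scaled, axis from 0) in each of the 3 WT libraries (blue) and 3 AEG-1 KO libraries (red), with circle, square and triangle for replicates 1, 2 and 3, and the mean and SD (n = 3) as dash and bar. Dnajb9 lies at 24.9 to 29.6 CPM in WT and 37.1 to 39.4 CPM in AEG-1 KO, and Herpud1 at 115 to 124 and 88.4 to 96.4 CPM.

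Length-scaled levels (TPM, counts divided by merged exon length and scaled to a common total) placed the 10 genes on a common scale. Calr was the most abundant transcript, at 728 ± 10.2 TPM in WT (SD, n = 3). Hspa5, Hsp90b1 and Canx followed at 417 ± 23.5, 405 ± 26.8 and 372 ± 26.6 TPM. Within libraries the ratio of Hspa5 to Hsp90b1 was 1.05, 1.02 and 1.02 in WT and 1.08, 1.08 and 1.14 in AEG-1 KO. Pdia6 stood at 187 ± 5.92, Herpud1 at 143 ± 2.93, Pdia4 at 115 ± 2.7 and Xbp1 at 104 ± 6.34 TPM. Sdf2l1 was lower at 71.5 ± 7.36 TPM, and Dnajb9 lowest at 29.8 ± 3.23 TPM. In AEG-1 KO the level of Dnajb9 was 42 ± 1.79 TPM, still the lowest of the 10. Herpud1, at 111 ± 3.9 TPM in AEG-1 KO, lay below Pdia4, at 121 ± 4.19 TPM, whereas in WT it lay above it. The 10 genes together took 0.257 ± 0.00903% of all TPM in WT and 0.259 ± 0.00919% in AEG-1 KO, a difference smaller than the spread between libraries. For comparison, the median gene tested stood at 12.9 TPM.

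**Figure D2:**
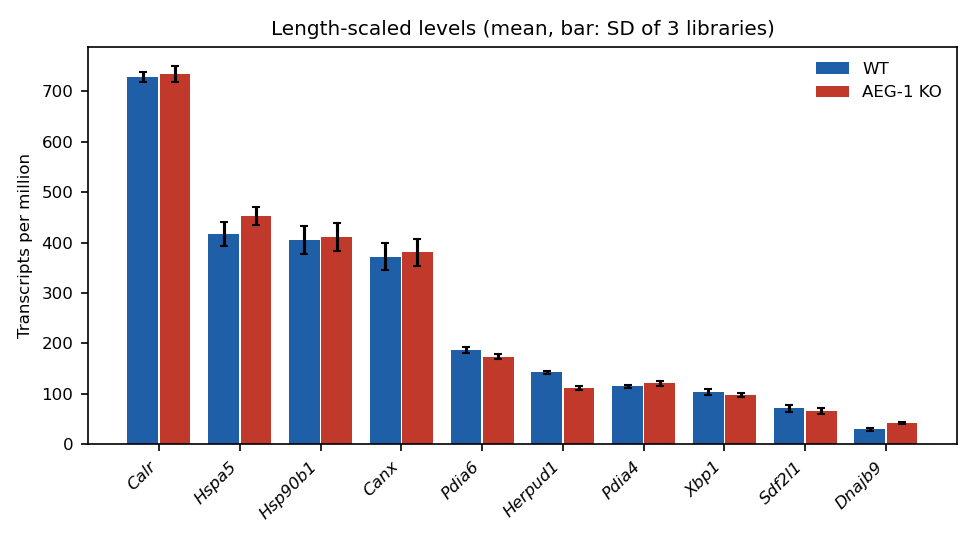
Length-scaled level (TPM, linear axis from 0) of the 10 genes, ordered by their WT level, as the mean of 3 WT libraries (blue) and 3 AEG-1 KO libraries (red) with the SD as bar. Calr stands at 728 TPM in WT and Dnajb9 at 29.8 TPM.

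Hspa5 (ENSMUSG00000026864, GRCm38 chromosome 2, 34771970 to 34777547, plus strand) encodes BiP, the ER member of the HSP70 chaperones and the classical readout of ER stress. It measured 616, 634 and 660.5 CPM in WT replicates 1 to 3 and 688, 694 and 659 CPM in AEG-1 KO replicates 1 to 3. AEG-1 KO replicate 3 lay just below WT replicate 3, so the groups overlapped, with the other AEG-1 KO libraries above all WT libraries. The log2 fold change was 0.10 ± 0.04 (SE), with a 95% interval from -0.00 to 0.19 and an edgeR adjusted p of 0.234. At the upper end of that interval the level in AEG-1 KO would be 114% of WT.

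Hsp90b1 (chromosome 10, 86690209 to 86705509, minus strand) encodes GRP94, the ER member of the HSP90 chaperones, which folds Toll-like receptors and integrins among other clients. Its levels were 561, 592 and 617 CPM in WT and 606, 610 and 551 CPM in AEG-1 KO. The lowest and the highest library were AEG-1 KO replicate 3 and WT replicate 3, and the groups overlapped throughout. Hsp90b1 differed by a log2 fold change of -0.00 ± 0.05 (95% interval -0.12 to 0.12, edgeR adjusted p = 0.989). Exons of Hsp90b1 overlap those of 1810014B01Rik on the other strand and of Gm15344 and Gm25745 on its own, and how such reads were counted is not given in the sources used here.

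Dnajb9 (ENSMUSG00000014905, chromosome 12, 44205559 to 44210326, minus strand) encodes ERdj4, a J-domain co-chaperone of BiP that is a known XBP1 target and is known to return IRE1 to its resting state. It had 27.6, 24.9 and 29.6 CPM in WT and 37.1, 39.4 and 37.4 CPM in AEG-1 KO, from 1235 to 1680 reads per library. All 3 AEG-1 KO libraries lay above all WT libraries. The log2 fold change was 0.48 ± 0.07 (SE; 95% interval 0.32 to 0.63; edgeR adjusted p = 0.00416), and the call held in each of the 6 fits without 1 library. The median log2 fold change of the tested markers was 0.59 for monocytes, 0.63 for neutrophils and 0.997 for stromal cells, and their part in the result was not tested. Its exons overlap those of the microRNA gene Mir5627 on the other strand.

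Sdf2l1 (chromosome 16, 17130138 to 17132383, minus strand) encodes an ER protein that works in a complex with BiP and its J-domain partners. It was the least precisely measured of the 10, at 32.2, 28 and 25.8 CPM in WT and 23.7, 26.3 and 28.3 CPM in AEG-1 KO. The groups overlapped, with WT replicate 1 highest and AEG-1 KO replicate 1 lowest. Its difference was -0.14 ± 0.09 on the log2 scale (95% interval -0.34 to 0.07, edgeR adjusted p = 0.447). A level in AEG-1 KO as low as 78.9% of WT lies within that interval. The value moved with single libraries: it was -0.058 without WT replicate 1, -0.070 without AEG-1 KO replicate 1, and -0.208 and -0.206 without replicate 3 of WT and of AEG-1 KO.

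Calr (chromosome 8, 84841850 to 84846934, minus strand) and Canx (chromosome 11, 50293961 to 50325673, minus strand) encode calreticulin and calnexin, the lectin chaperones that hold glycoproteins during folding. Calr had 750, 779 and 745 CPM in WT and 756, 754 and 743 CPM in AEG-1 KO. Its log2 fold change of -0.01 ± 0.04 carried the narrowest interval of the 10 genes, -0.10 to 0.07 (edgeR adjusted p = 0.881). Canx had 604, 621 and 664 CPM in WT and 652, 658 and 591 CPM in AEG-1 KO, and the groups overlapped. Canx differed by a log2 fold change of 0.01 ± 0.05, with an interval from -0.11 to 0.13 (edgeR adjusted p = 0.952).

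Pdia4 (chromosome 6, 47796141 to 47813430, minus strand) and Pdia6 (chromosome 12, 17266545 to 17284770, plus strand) encode protein disulfide isomerases, and PDIA6 is known to limit IRE1 signalling. Pdia4 had 97.5, 102 and 98.9 CPM in WT and 105, 104 and 100 CPM in AEG-1 KO, and the groups overlapped (log2 fold change 0.05 ± 0.04, 95% interval -0.05 to 0.14, edgeR adjusted p = 0.586). Pdia6 had 245, 263 and 251 CPM in WT and 237, 224 and 231 CPM in AEG-1 KO, so that all 3 AEG-1 KO libraries lay below the WT libraries. Its log2 fold change was -0.13 ± 0.04, with an interval from -0.23 to -0.04, and it did not pass the adjusted test (edgeR adjusted p = 0.111). When a trend with gene length and GC content was removed from each library, Pdia6 was called lower (log2 fold change -0.15, edgeR adjusted p = 0.0129), which brought the count of the 10 genes called lower to 2, in a fit that called 6.19% of all genes higher and 8.25% lower. Exons of Pdia6 overlap those of Atp6v1c2 on the other strand, and those of Pdia4 the microRNA gene Mir704 on its own.

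Herpud1 (ENSMUSG00000031770, chromosome 8, 94386438 to 94395377, plus strand) encodes HERP, an ER membrane protein that assembles the ubiquitin ligase complex for ER-associated degradation, in which misfolded proteins are sent to the proteasome. It had 124, 123 and 115 CPM in WT and 88.4, 90.9 and 96.4 CPM in AEG-1 KO, from 3871 to 7206 reads per library. All 3 AEG-1 KO libraries lay below all WT libraries. The log2 fold change was -0.39 ± 0.05 (SE; 95% interval -0.51 to -0.28; edgeR adjusted p = 0.00243), and the call held in each of the 6 fits without 1 library. Its exons overlap no other gene in the table. The sum of the B and plasma cell markers was lower in the AEG-1 KO libraries, while the median log2 fold change of the 9 tested markers was 0.09. Of these, 1 was called, Ighm, at 41.2, 43.9 and 41.7 CPM in WT and 30.4, 30 and 30.8 CPM in AEG-1 KO, and their part in the result was not tested. Its promoter stretch is the one printed above with both an ER stress element and an ATF4-type element.

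Xbp1 (chromosome 11, 5520659 to 5525893, plus strand) encodes the transcription factor of the IRE1 arm. Its total level was 116, 123 and 126 CPM in WT and 114, 114 and 110 CPM in AEG-1 KO. The AEG-1 KO libraries all lay below the WT libraries, with a gap to WT replicate 1 of little more than 1 CPM. The log2 fold change was -0.11 ± 0.05 (95% interval -0.21 to -0.00), and it did not pass the adjusted test (edgeR adjusted p = 0.223). A count per gene adds the unspliced and the IRE1-spliced transcript, so splicing could not be read from this table.

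**Figure D3:**
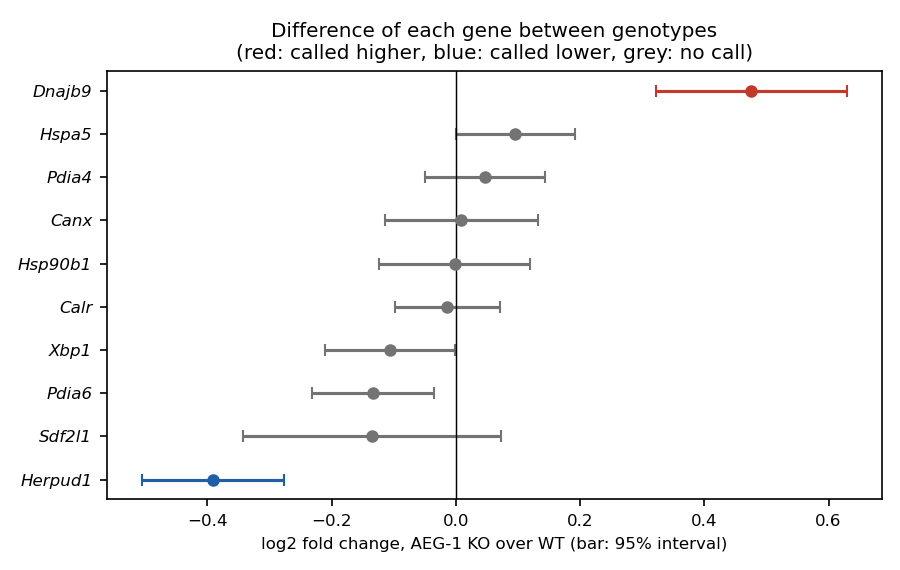
Log2 fold change of each of the 10 genes in AEG-1 KO relative to WT (horizontal axis), with its 95% interval as bar, in red where called higher, blue where called lower and grey where not called. Dnajb9 lies at 0.48 and Herpud1 at -0.39, and the intervals of 7 genes lie within 0.25 of 0 on either side.

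The intervals of 7 genes (Hspa5, Hsp90b1, Xbp1, Calr, Canx, Pdia4 and Pdia6) stayed within a log2 fold change of 0.25 in either direction, a bound chosen after the values were seen. The 10 genes were also compared in how they varied over the 6 libraries, by the root-mean-square difference between their log2 CPM values after centring each gene on its own mean. This distance, in log2 units, is a description, since all genes share the same libraries. Hsp90b1 and Canx had the closest profiles of any pair of the 10, at 0.0143, and both were lowest in AEG-1 KO replicate 3 and highest in WT replicate 3. Dnajb9 and Herpud1 were the farthest apart, at 0.447. AEG-1 KO replicate 3 was the lowest library for 4 of the 10 genes. From Hspa5, the distance was 0.0418 for Pdia4, 0.0528 for Canx and 0.0565 for Hsp90b1, against 0.202 for Dnajb9 and 0.258 for Herpud1.

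Of 9105 other genes that averaged 10 CPM or more, the 5 with profiles closest to that of Hspa5 over the 6 libraries were Clcn4, Tm9sf2, Arl8b, Atp1b3 and Thumpd1. Their distances were 0.00883, 0.01, 0.0112, 0.0129 and 0.014, beside a median of 0.0973 over all genes compared. None of the 5 was called between genotypes (edgeR adjusted p from 0.249 to 0.48).

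The wider ER system was described by 7 lists of 131 other genes, of which 128 passed the filter and Clgn, Gpx8 and Kdelr3 did not. In these 128 genes 1 was called higher and 2 lower, beside 3.31% and 3.04% of all genes. The count rests on the library set and the fit. Without 1 library in turn, 0 to 2 were called higher and 0 to 4 lower. In those fits 1.12% to 3.15% of all genes were called higher and 1.2% to 3.5% lower. With the length and GC trend removed 6 were called higher and 15 lower, beside 6.19% and 8.25% of all genes in that fit. Their median log2 fold change was 0.01, equal to that of all genes when rounded.

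Upstream, of 12 sensors and transcription factors, none was called with edgeR, DESeq2 or limma-voom. With edgeR 3.31% of all genes were called higher and 3.04% lower, so no call in a list this short is near that share. An unadjusted edgeR p under 0.05 was found for 2 of the 12, beside 21.6% of all genes. Ern1, which encodes the sensor IRE1, had 117, 115 and 116 CPM in WT and 120, 119 and 119 CPM in AEG-1 KO, without overlap between groups (log2 fold change 0.04 ± 0.04, edgeR adjusted p = 0.591). Atf6 had 155, 152 and 157 CPM in WT and 152, 148 and 144 CPM in AEG-1 KO (log2 fold change -0.06 ± 0.04, edgeR adjusted p = 0.419). Eif2ak3, which encodes PERK, had 18.8, 19.4 and 20 CPM in WT and 21.6, 20.3 and 24.1 CPM in AEG-1 KO (log2 fold change 0.18 ± 0.07, edgeR adjusted p = 0.174). The groups of Atf6 and Eif2ak3 did not overlap either. Among the 12 genes the groups did not overlap for 4 that were higher and 2 that were lower in AEG-1 KO. Over all genes tested these shares were 13.9% and 12.9%. These 3 sensors are named for their role, after their values were seen. The smallest p in the list was that of Mbtps2, a protease that cuts ATF6, with a log2 fold change of 0.14 ± 0.05 (SE; edgeR adjusted p = 0.139), or 0.080 with the length and GC trend removed, uncertain because its exons overlap those of Yy2 on the same strand.

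Of 21 co-chaperones and folding factors, 1 was called higher and 2 lower, beside 3.31% and 3.04% of all genes. Hspa13, an HSP70-type protein of microsomes, rose from 57.8, 57.8 and 61.6 CPM to 72.1, 73.3 and 66.2 CPM (log2 fold change 0.26 ± 0.05, edgeR adjusted p = 0.0255). Manf, an ER stress-induced secreted factor, fell from 59.9, 60.5 and 58.8 CPM to 48.9, 47.1 and 51.2 CPM (log2 fold change -0.28 ± 0.05, edgeR adjusted p = 0.0092). Fkbp2, an ER prolyl isomerase, fell from 24, 28 and 24.2 CPM to 20.1, 19.5 and 21.6 CPM (log2 fold change -0.32 ± 0.08, edgeR adjusted p = 0.0421). In all 3 genes the groups did not overlap, which also held for 26.8% of all genes and adds little to a call. The call of Hspa13 was lost when WT replicate 1 or 2 or AEG-1 KO replicate 1 or 2 was left out, with edgeR adjusted p-values of 0.07, 0.12, 0.0916 and 0.159. That of Manf was lost when replicate 2 of either genotype was left out, with edgeR adjusted p-values of 0.0538 for WT and 0.0536 for AEG-1 KO. Fkbp2 lost it without WT replicate 2 or AEG-1 KO replicates 1, 2 or 3 (edgeR adjusted p = 0.151, 0.117, 0.155 and 0.0521), and also with the length and GC trend removed (edgeR adjusted p = 0.0578), where its log2 fold change was -0.41. Manf is uncertain, because its exons overlap genes on both strands and 1 other gene shares a near-identical stretch.

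The glycan-folding, disulfide, degradation, translocon and transport lists held no call with edgeR, DESeq2 or limma-voom. With edgeR 3.31% of all genes were called higher and 3.04% lower. With the length and GC trend removed they held 4 genes called higher and 13 lower, beside 6.19% and 8.25% of all genes in that fit. Unadjusted p-values under 0.05 were found in 0 of 7 glycan-dependent folding genes, 5 of 18 disulfide isomerases and oxidases, and 6 of 27 genes of ER-associated degradation. They were found in 5 of 23 genes of the translocon, signal peptidase and oligosaccharyltransferase and in 3 of 20 genes of ER to Golgi transport, while 21.6% of all genes had such a p. The genes with the smallest p of these lists were Mlec, Txndc5, Derl3, Srpra and Sec31a. Txndc5, a disulfide isomerase, had 125, 124 and 121 CPM in WT and 114, 109 and 111 CPM in AEG-1 KO (log2 fold change -0.15 ± 0.04, edgeR adjusted p = 0.0675). Derl3, a degradation factor found at about 1 CPM, had 1.21, 0.82 and 1.13 CPM in WT and 0.555, 0.517 and 0.692 CPM in AEG-1 KO (log2 fold change -0.81 ± 0.23, edgeR adjusted p = 0.0675). The log2 fold change was -0.08 for Mlec, -0.11 for Sec31a and 0.14 for Srpra, with edgeR adjusted p-values of 0.268, 0.151 and 0.0814. With the length and GC trend removed, Txndc5, Derl3 and Sec31a were called lower (edgeR adjusted p = 0.00983, 0.0378 and 0.0131). In that fit Srpra was called higher (edgeR adjusted p = 0.0364) and Mlec was not called (edgeR adjusted p = 0.0624). Txndc5 and Srpra are uncertain, since each overlaps exons on the other strand and shares a near-identical stretch with 1 other gene. 

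**Figure D4:**
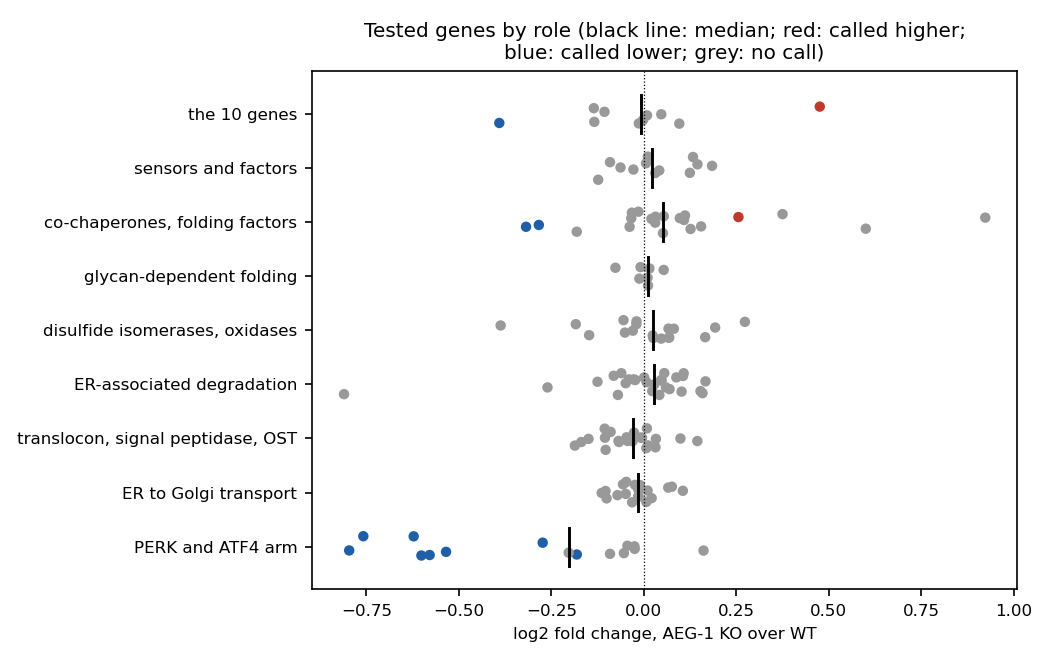
Log2 fold change in AEG-1 KO relative to WT (horizontal axis), of every tested gene of the 10 named genes and 8 lists by role (rows), as points with the median as a black line, red where called higher, blue where called lower and grey where not called. The PERK and ATF4 row holds 8 blue points, and the other 7 lists hold 1 red and 2 blue points.

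The PERK and ATF4 arm stood beside this as a list of 15 genes, all tested, with none called higher by edgeR, DESeq2 or limma-voom and 8 called lower by each, and a median log2 fold change of -0.20. Among all genes tested with edgeR, 3.31% were called higher and 3.04% lower. Its list was made knowing an earlier result of these data, in which ATF4 target genes were lower, so the count is a description and no independent evidence. The smallest adjusted p-values were those of Mthfd2, Slc7a5, Asns and Psat1, whose log2 fold changes were -0.60, -0.76, -0.58 and -0.53, with edgeR adjusted p-values from 0.000252 to 0.000899. Atf4 itself, named here after its values were seen, had 279, 280 and 281 CPM in WT and 243, 251 and 246 CPM in AEG-1 KO (log2 fold change -0.18 ± 0.04, edgeR adjusted p = 0.0208). Ddit3, which encodes CHOP, the factor of prolonged ER stress, had 67.1, 74.8 and 67.1 CPM in WT and 67.3, 67.6 and 70.6 CPM in AEG-1 KO, and was not called (log2 fold change -0.03 ± 0.06, edgeR adjusted p = 0.843). Herpud1, which fell, was not a member of this list.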

How the data were processed

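Libraries of total RNA came from an Illumina TruSeq kit, per the labels' protocols. The authors deposited raw read counts per Ensembl gene, 1 column per library, per the file headers. The builds GRCm38 and mm10 and the tools featureCounts 1.4.6-p4, Subread, cutadapt 1.9, edgeR 3.18.1 and FastQC 0.11.2 are named per the submitters' processing notes. Annotation release, strand setting and handling of multiply matching reads: not given in the sources used here.

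Symbols, GRCm38 positions and exon lengths came from GENCODE mouse release 21 (46488 of 46983 genes matched). The filterByExpr filter used a minimum count of 10, and TMM-scaled counts were fitted with edgeR 4.0.16 in R 4.3.3, genotype as the only term; 16115 genes were tested. SE is the size of the log2 fold change divided by the root of F. Levels used CPM and TPM, and log2 CPM a prior count of 2. BLAST+ 2.17.0 compared the longest annotated transcript of each gene. It found no other gene sharing a stretch of 100 or more nucleotides at 95% identity with any of the 10 genes. Other transcripts were not compared. Within genotypes the chi-square per degree of freedom between libraries was 5.62 to 19.4, so none was a duplicate. On simulated data for this comparison (15963 genes), the fit recovered 100% of changes of log2 1 and 74% of 0.5, with 4.4% false calls. The simulated counts followed the fitted dispersion trend, without the spread of single genes around it and without a length or GC trend. These rates therefore need not hold for the real libraries.

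The 10 genes and all lists were chosen with earlier results of these data known. Named were the 10 genes, Mtdh, up to 4 called genes with the smallest adjusted p per list (or, with no call, the 1 with the smallest p) and the 5 genes closest to Hspa5; others were chosen after their values were seen. Alternatives were other scalings (RLE, upper-quartile, none), no filter or a minimum count of 50, DESeq2 1.42.0, limma-voom 3.58.1, a robust fit, the replicate number as a block, removal of a trend on length and GC content (mgcv 1.9.3), and leaving out each library.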

Additional observations from a re-analysis of the deposited data

How the results depend on the processing

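Each of the 10 genes was refitted under 17 alternatives. Dnajb9 stayed higher (log2 fold change 0.41 to 0.53) and Herpud1 lower (-0.43 to -0.36) in all 17, and both kept their calls in all but 1, the replicate block. Deviations from the group means had correlations of -0.27, -0.17 and -0.25 between same-numbered libraries, for numbers 1 to 3. Between differently numbered libraries they were 0.057 to 0.194. Deviations within a group cancel out, which ties these correlations to each other, so they cannot tell whether the numbers mark a pairing or a batch. With the replicate block, the count of all genes called was 227, with 0.701% of all genes higher and 0.707% lower. In that fit none of the 10 genes was called (0 higher, 0 lower). Dnajb9 was at 0.48 (edgeR adjusted p = 0.0521) and Herpud1 at -0.39 (edgeR adjusted p = 0.0507). Of the 128 other ER genes 0 were called higher and 0 lower, and 5 of the 15 genes of the PERK and ATF4 list were called lower. With the length and GC trend removed, 2326 genes were called, 6.19% of all genes higher and 8.25% lower. Of the 10 genes 2 were lower (Pdia6 at -0.15), and other ER genes gave 6 higher and 15 lower. The cause was not tested. Without a filter on low counts, 2 other ER genes were called higher, beside 1.66% of all genes in that fit. Canx, at 0.0085 in the reported fit, was -0.0054 without a filter, -0.042 with the trend removed, and -0.043 with the trend removed and the replicate block. Fits without 1 library gave 380 to 1092 calls (441 without WT replicate 2, 667, 380 and 606 without AEG-1 KO replicates 1, 2 and 3). In them 1.12% to 3.15% of all genes were called higher and 1.2% to 3.5% lower. Leaving out 1 library gave 0 to 2 other ER genes higher and 0 to 4 lower. It moved Hsp90b1 between -0.050 and 0.035, Calr between -0.034 and 0.0058 and Canx between -0.033 and 0.048, none of them called. Also uncalled, Sdf2l1 (-0.135 as reported) ranged from -0.208 to -0.058, Pdia4 (0.047) from 0.020 to 0.066 and Hspa5 (0.096) from 0.059 to 0.118. Fewer libraries also leave fewer degrees of freedom. The lowest count of any of the 10 genes in a library was 1067, so depth limits Derl3 and other genes near 1 CPM more than these.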

Other observations

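Serpinh1, which encodes the collagen chaperone HSP47, had 0.783, 0.513 and 1.02 CPM in WT and 1.69, 1.36 and 1.21 CPM in AEG-1 KO (log2 fold change 0.92 ± 0.25, SE, with an edgeR adjusted p of 0.061), the highest log2 fold change of the 128 other ER genes tested. The 7 stromal markers, collagen genes among them, summed to 5.45 to 6.91 CPM in WT and 9.34 to 11.2 CPM in AEG-1 KO, and their part in the Serpinh1 value was not tested. Creld2, an ER stress-induced folding factor often measured beside Manf, had 23.7, 23.5 and 21 CPM in WT and 19.3, 20.2 and 20.7 CPM in AEG-1 KO (log2 fold change -0.18 ± 0.07, edgeR adjusted p = 0.152). Neither gene passed the test as reported, and both passed it with the length and GC trend removed, Serpinh1 higher (0.92, edgeR adjusted p = 0.0471) and Creld2 lower (-0.17, edgeR adjusted p = 0.0356).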
